A study of Mus musculus with 13 samples.

Results

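Brain hemispheres of wild type mice given tacrine, moclobemide and creatine together were compared with brain hemispheres of untreated wild type mice, across all genes on the array. The comparison rests on 6 of the 13 arrays in the series, chosen by their titles: 3 name a wild type animal with the triple treatment and 3 a wild type animal without treatment. The listed doses were 2.7 mg/kg per day of tacrine from 5 weeks, 10 mg/kg per day of moclobemide, and 1% (w/v) creatine added to wet mash. The same drugs are listed for untreated animals, so the titles alone gave the treatment. Harvest at 8 weeks is given for untreated array 2 alone. No strain, sex or pairing is given, and each of these 6 arrays carries a lot number of its own, so no batch could be fitted. Whether each array is a separate animal is not stated, and p-values measure the spread between these samples, which may be technical. The other 7 arrays are from R6/2 mice, which carry the first exon of human huntingtin with an expanded CAG repeat. They were 4 untreated and 3 treated arrays, and they served to estimate the spread and as the set beside which the wild type response was placed.

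Tacrine inhibits the cholinesterases, the enzymes that break down acetylcholine at synapses. Moclobemide is a reversible inhibitor of monoamine oxidase A, which degrades serotonin and noradrenaline. Creatine is taken up through a sodium-coupled transporter and phosphorylated by creatine kinases, and phosphocreatine then buffers ATP in neurons and glia.

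Signals are linear intensities scaled by the authors to a common trimmed mean, and the median gene probe set read 41 to 42 in untreated and 41.5 to 44 in treated wild type arrays. Neuronal genes of the brain were bright in all 6 arrays: Snap25, a protein of transmitter release, read from 2680 to 3580. Within the groups the residual SD of log2 signal per array was 0.231 to 0.256 in untreated and 0.261 to 0.32 in treated wild type arrays, against up to 0.439 in untreated R6/2 arrays. The 18S ribosomal control, read by its 3′ probe set, was 28.2, 44.5 and 43 in untreated and 79.3, 70.9 and 128.1 in treated wild type arrays. The groups did not overlap, with an untreated mean of 38.6 ± 9.01 (SD, n = 3), a treated mean of 92.8 ± 30.9 (SD, n = 3) and an exact two-sided permutation p of 0.1, which is the smallest that 3 against 3 arrays can give. The ratio of 3′ to 5′ actin control signal, a measure of RNA integrity, had an untreated mean of 1.341 ± 0.02 (SD, n = 3) and a treated mean of 1.5 ± 0.232 (SD, n = 3), at an exact permutation p of 0.4, with treated array 1 highest at 1.75. The part of these controls in the gene differences below was not tested. All 66 control rows of R6/2 arrays 1, 2 and 3 of the untreated group were fixed multiples of those of another R6/2 array each (untreated array 4 and treated arrays 1 and 3), with a ratio of 1.2 or 0.833 in all 66, so the controls of those arrays are not separate measurements. No pair with a wild type array showed this, and fits without the R6/2 arrays are given beside the overall result.

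The first question was whether the drugs changed any transcript in healthy brain. Of 7453 probe sets tested, 0 (0.0%) passed an adjusted p of 0.05 in limma, and the smallest adjusted p was 0.0522. At an unadjusted p under 0.05 there were 769 probe sets (10.3%), 417 higher (5.6%) and 352 lower (4.72%) in treated arrays. After each array was scaled to the same median the balance turned, with 36.3% of such probe sets higher in place of 54.2%. Treated and untreated arrays did not overlap at 1622 probe sets (21.8%), of which 846 (11.4%) were higher and 776 (10.4%) lower in treated arrays. Most estimates were small: 91.1% lay within 0.5 of 0 on the log2 scale, and 52 of the probe sets without overlap differed at least 2-fold, 26 in each direction.

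The untreated R6/2 arrays, the most variable, enter that estimate of the spread. When only the 6 wild type arrays were fitted, 9 probe sets (0.121%) passed, 6 higher and 3 lower, all at an adjusted p of 0.0497. When the 4 untreated R6/2 arrays were left out and 9 arrays fitted, 7 passed (0.0939%), 6 of them also among those 9. With array weights 120 passed (1.61%), 76 higher and 44 lower. Called with the 6 arrays were Snai2, Tex2, Gbp7, Uhmk1, Actb and Otub1 as higher and Thrb, Men1 and Atp6v1a as lower. Otub1 (1.09 ± 0.15, log2 change ± SE in that fit) and Atp6v1a (-0.63 ± 0.09), a subunit of the proton pump of vesicles, were outside the naming rule and are given because they passed there. With 9 arrays the probe set called in addition was that of the synaptic vesicle gene Syp.

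The 3 genes with the smallest p-values were all higher in treated brain. Snai2, which encodes the zinc finger repressor Slug, read 34.3, 35.2 and 30.1 in untreated and 68.5, 68.8 and 74.2 in treated arrays. Every treated array was about double every untreated one, a log2 change of 1.09 ± 0.16 (SE, limma adjusted p = 0.0522). Tex2, a lipid-binding protein gene of membrane contact sites, went from 45.9, 33.7 and 24.4 to 95.4, 102.7 and 103.9 (1.58 ± 0.25, limma adjusted p = 0.0522). Gbp7, an interferon-inducible guanylate-binding protein, went from 28.4, 29 and 25.4 to 86.2, 66.4 and 70.4 (1.42 ± 0.23, limma adjusted p = 0.0522). None of the 3 overlapped between groups, and their adjusted p reached 0.409 when untreated array 3 was left out. Gprasp1, which sorts G protein-coupled receptors to lysosomes, read 50.7 to 81.3 in untreated and 127.2 to 156.1 in treated arrays (1.27 ± 0.23, limma adjusted p = 0.109), and its other, dimmer probe set gave 0.46. Further higher readings with no overlap included Rag1 (1.68 ± 0.36), a recombinase gene whose other probe set stayed at the floor, Slc7a9, a cystine transporter gene (1.91 ± 0.43), and Abcb4, a phospholipid transporter gene (1.10 ± 0.27). Untreated signals of Slc7a9 (8.3, 20 and 12.3) and Abcb4 (22.5, 16.8 and 11.1) were under 24.9, the level at which probe sets were dropped as dim. The size of these 2 differences is therefore less certain. Untreated signals also fell under that level for Rag1 in array 2 (14.5) and for Tex2 in array 3 (24.4). Those of Gbp7 (25.4 to 29) and Snai2 (30.1 to 35.2) lay close above it. For Uhmk1, a kinase gene, the estimate was 1.15 ± 0.28 on the probe set named, but -0.19 and -0.90 on its 2 others. The mean of untreated R6/2 arrays was near that of treated wild type arrays for Rag1 (83.2 and 83.9), Abcb4 (37.6 and 34.8) and Gprasp1 (128.7 and 146.1). For Snai2 (49.3 and 70.5), Tex2 (60.7 and 100.7) and Gbp7 (51.05 and 74.3) it lay between the wild type groups. Among genes described below, it was also near for Birc2 (108.7 and 107.5), Hspa5 (614.75 and 613), Calm2 (77.1 and 73.3) and Nfyb (85.9 and 88.3). It was not near for others, such as Thrb (32.8 and 11.5), Sin3b (179.65 and 98.0) and Gad1 (1091 and 1405). These are examples and not a count, and the reason was not tested.

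**Figure D1:**
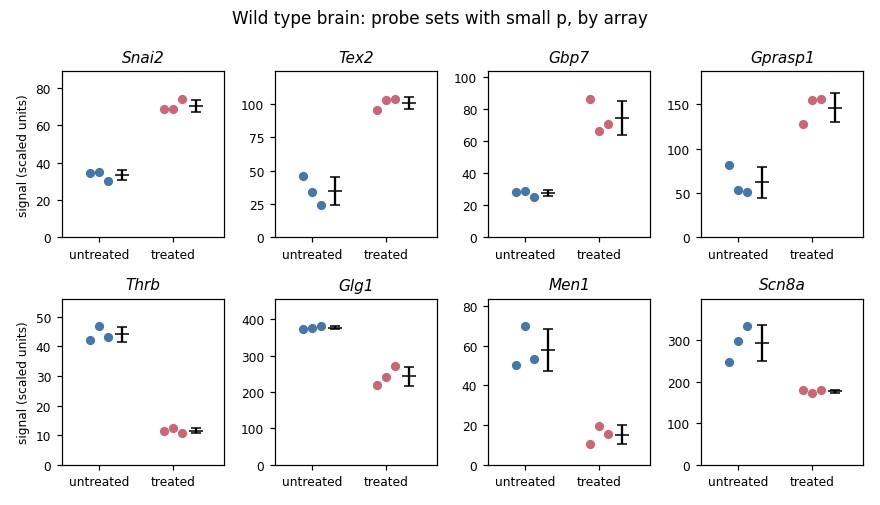
Signal (scaled linear units, axes from 0) of 8 probe sets in the 3 untreated (blue) and 3 treated (red) wild type arrays, with the mean and SD in black. Snai2, Tex2, Gbp7 and Gprasp1 lie higher and Thrb, Glg1, Men1 and Scn8a lower in every treated array.

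Among lower readings, Thrb had the smallest p. Thrb encodes a thyroid hormone receptor, and it read 42, 46.7 and 43.2 in untreated and 11.5, 12.4 and 10.7 in treated arrays. The treated arrays lay within 2 units of each other and well under the untreated ones, a log2 change of -1.93 ± 0.36 (SE, limma adjusted p = 0.132). Glg1, a Golgi glycoprotein gene, read 373.8 to 380.7 in untreated and 219.4 to 270.5 in treated arrays (-0.64 ± 0.13), and its other probe set gave -0.40. Men1, which encodes the nuclear scaffold menin, went from 50.3, 69.7 and 53.2 to 10.3, 19.6 and 15.6 (-1.96 ± 0.45, limma adjusted p = 0.254). Treated signals of Thrb and Men1 were under 24.9, the mean level at which probe sets were dropped as dim, so the size of these differences is less certain than that of Glg1.

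Scn8a, a voltage-gated sodium channel of axons, read 246.9, 297.8 and 332.8 in untreated and 178.7, 173 and 179.4 in treated arrays (-0.71 ± 0.16, limma adjusted p = 0.254). Its treated arrays were close together, and all lay below the untreated ones. Untreated R6/2 arrays had a mean of 183.35, near the treated wild type mean of 177. Fgf13, which binds sodium channels, read 91.2 to 104.9 and 30.6 to 53.9 (-1.17 ± 0.27). Nfyb and Nfyc, subunits of the CCAAT-binding factor NF-Y, had estimates of -0.69 ± 0.16 and -1.57 ± 0.36, but the brighter probe set of Nfyc gave 0.00. Sin3b, a corepressor scaffold, was at -0.57 ± 0.13 and -0.33 on its other probe set. Arsa, a lysosomal sulfatase whose substrate is the myelin lipid sulfatide, read 112.2 to 121.3 and 75.5 to 79.3 (-0.59 ± 0.14), and its dim other probe set gave 0.60.

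For the direct targets of the enzyme inhibitors the estimates were close to 0. Ache, the acetylcholinesterase that tacrine inhibits, read 290.1, 249.8 and 294.8 in untreated and 216.7, 308.2 and 315 in treated arrays. The groups overlapped, at -0.01 ± 0.22 (SE, limma adjusted p = 0.996), and the sign changed when single arrays were left out. Maoa, the enzyme that moclobemide inhibits, read 119.6, 98.5 and 104.7 against 124.1, 108.9 and 84.4 (-0.04 ± 0.18, limma adjusted p = 0.974), again with overlap and without a stable sign. Such estimates do not show that the levels were equal. Bche, the other cholinesterase, lay below the filter, and Maob was not read by a single-gene probe set.

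Creatine genes varied more. Gamt, which completes creatine synthesis by methylating guanidinoacetate, read 141, 123.5 and 107 in untreated and 172, 172.7 and 176.1 in treated arrays. Its treated arrays were within 5 units of each other and above all untreated ones (0.50 ± 0.15, limma adjusted p = 0.318), but its other kept probe set gave -0.28. Untreated R6/2 arrays had a mean of 175.7, near the treated wild type mean of 173.6. Gatm, which starts the synthesis, read 397.4 to 444.8 and 435.4 to 559.8 (0.27 ± 0.15) with overlap. Slc6a8, the creatine transporter, read 159.9, 147.7 and 152.8 in untreated and 113.8, 130.9 and 123.9 in treated arrays, lower in each treated array (-0.32 ± 0.17, limma adjusted p = 0.52), and its dim other probe set gave 0.29. The brain creatine kinase Ckb (0.35 ± 0.22), the muscle form Ckm (0.59 ± 0.38) and the mitochondrial form Ckmt1 (0.10 ± 0.16) overlapped between groups. Of the 11 drug target and creatine genes 8 were kept, 0 passed and 1, Gamt, had an unadjusted p under 0.05, beside 10.3% of all probe sets. The median log2 change of the 8 was 0.18, beside 0.01 over all probe sets.

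**Figure D2:**
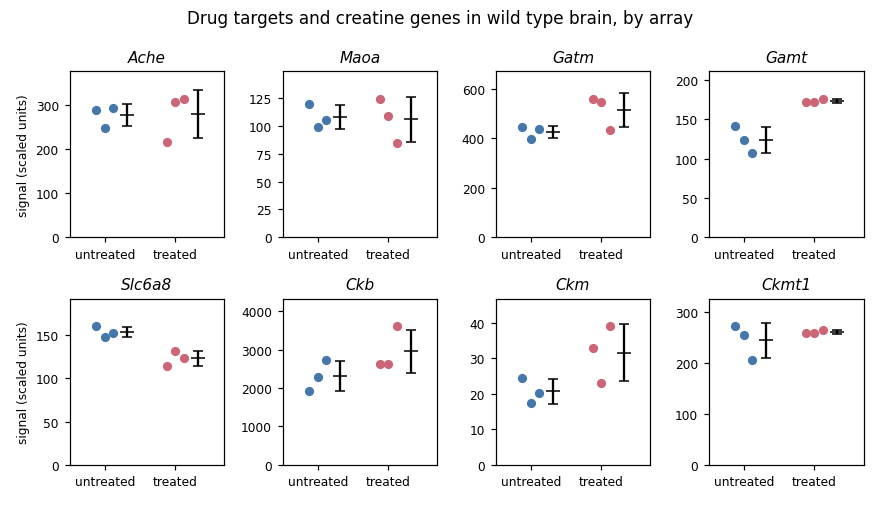
Signal (scaled linear units, axes from 0) of the 8 kept drug target and creatine genes in the 3 untreated (blue) and 3 treated (red) wild type arrays, with the mean and SD in black. Gamt is higher and Slc6a8 lower in every treated array, while Ache and Maoa overlap.

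For receptors and transporters of the transmitters that the drugs act on, counts stand beside 10.3% of all probe sets at an unadjusted p under 0.05. Of 24 cholinergic genes 9 had a probe set of their own, 3 of these were kept and 0 passed or had an unadjusted p under 0.05: the muscarinic receptor Chrm1 (-0.23 ± 0.27), the nicotinic subunit Chrna7 (-0.09 ± 0.29) and Colq, the collagen tail of acetylcholinesterase (0.14 ± 0.23). Of 43 monoamine genes 27 had a probe set of their own, 19 of these were kept and 0 passed. At an unadjusted p under 0.05, 2 of the 19 were higher, beside 5.6% of all probe sets. Htr5b, a serotonin receptor, read 27.6, 26.3 and 28 in untreated and 36.7, 48.8 and 45.6 in treated arrays (0.67 ± 0.26, limma adjusted p = 0.402). Slc6a4, the serotonin transporter, overlapped between groups (0.59 ± 0.27), and its other, dim probe set gave -1.39. Th, the first enzyme of dopamine synthesis, was at -0.37 ± 0.22, and the dopamine receptor Drd2 at 0.12 ± 0.18.

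In all, 33 gene lists with 1007 genes were described, of which 611 genes were kept, each read by its brightest probe set. No list had a member past the adjusted threshold. The list medians ran from -0.81 for blood to 0.18 for the drug targets, 17 above 0 and 16 below. In whole hemispheres, fewer cells of a type and less RNA per cell cannot be told apart.

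**Figure D3:**
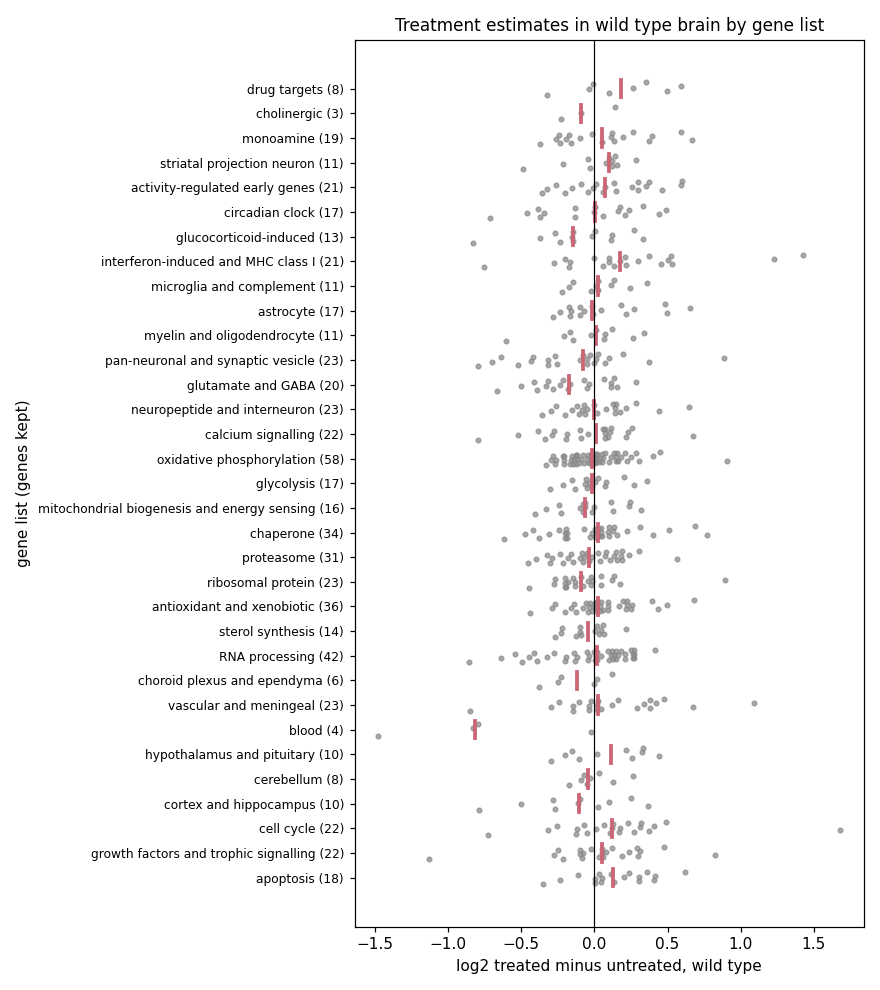
Each grey point is the log2 change (treated minus untreated wild type) of 1 kept gene, in rows by gene list, with the number of genes kept in brackets and the list median as a red bar. Most medians lie near 0, and the blood list stands lowest, at a median of -0.81.

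Estimates of synaptic vesicle and neuronal genes were more often below than above 0. In the pan-neuronal list 16 of 23 kept genes had estimates below 0, the median was -0.08, and 3 genes were lower and 1 higher at an unadjusted p under 0.05 with 0 past the adjusted threshold. Over all probe sets 52.3% were above 0, 4.72% lower and 5.6% higher at that level. Syp, the vesicle membrane protein synaptophysin, read 572.8, 468 and 442.5 in untreated and 276.8, 311.1 and 264.8 in treated arrays. All treated arrays were below all untreated ones (-0.79 ± 0.23, SE, limma adjusted p = 0.317, and adjusted p = 0.0249 with 9 arrays fitted). Syn2, a synapsin that tethers vesicles, read 819.1 to 864.9 and 458.4 to 715 (-0.53 ± 0.15), and Map2, a dendritic microtubule protein, 165.7 to 205 and 85 to 149.9 (-0.64 ± 0.23). Stx1a, a membrane protein of vesicle fusion, was at -0.43 ± 0.21 without overlap. The list was not uniform: the light neurofilament Nefl was at 0.89 ± 0.38 with overlap, and Snap25 at 0.10 ± 0.17. The summed signal of the list was 20417 to 20880 in untreated and 18120 to 20011 in treated arrays.

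GABA and glutamate genes went both ways. Of 20 kept genes 14 had estimates below 0, the median was -0.17, and at an unadjusted p under 0.05 there were 2 lower and 1 higher, beside 4.72% and 5.6% of all probe sets. The median was -0.0821 without treated array 1 and -0.32 without treated array 2. Slc32a1, which loads GABA into vesicles, read 982.1, 1274.1 and 1116.9 in untreated and 668.3, 792.8 and 922.6 in treated arrays (-0.51 ± 0.17, limma adjusted p = 0.346). Gad1, which makes GABA, read 1199.6, 1167.3 and 1099.4 against 1454.2, 1433.5 and 1327.7, higher in each treated array (0.28 ± 0.11, limma adjusted p = 0.398). Gria3, an AMPA receptor subunit, read 124.5 to 152.3 and 69.9 to 102.4 (-0.66 ± 0.26). Among calcium genes, the calmodulin gene Calm2 was at 0.67 ± 0.18, the calcium pump Atp2b2 at -0.79 ± 0.28 and the kinase Prkca at -0.52 ± 0.17, each without overlap, and the median of the 22 kept was 0.01.

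Peptide and striatal genes showed few differences. Npy2r, a receptor for neuropeptide Y, read 93.8, 78.1 and 94.8 in untreated and 134.6, 144.5 and 136.6 in treated arrays. All treated arrays were higher (0.65 ± 0.18, limma adjusted p = 0.297), and its other probe set gave 0.76. It was the 1 of 23 kept genes of the peptide list with an unadjusted p under 0.05, beside 10.3% of all probe sets, and the list median was 0.00. Of 11 striatal genes 1 was lower at that level, beside 4.72% of all probe sets. That gene was Arpp19, a phosphatase inhibitor (-0.49 ± 0.19, with -0.19 on its other probe set), and the enkephalin precursor Penk was at 0.08 ± 0.15. In the cortex list Rgs4, which shortens G protein signals, read 150.8 to 181.2 and 75.5 to 120.7 (-0.79 ± 0.29). It was the 1 of 10 kept genes of that list with an unadjusted p under 0.05. Without overlap, 4 of the 10 were lower and 1 higher, beside 10.4% and 11.4% of all probe sets.

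Activity-regulated early genes, transcribed within minutes of neuronal stimulation, included 3 of 21 that were higher and 0 lower at an unadjusted p under 0.05, with a median of 0.07, where 5.6% and 4.72% of all probe sets were. The median was 0.0083 without treated array 3 and up to 0.15 without treated array 2. Junb, an AP-1 subunit, read 111.6, 95.9 and 101.4 in untreated and 137.7, 132.8 and 205.5 in treated arrays (0.60 ± 0.18, limma adjusted p = 0.322). Treated array 3 was the highest, and its other probe set gave -0.45. The phosphatase gene Dusp1 (0.35 ± 0.16) and Klf4 (0.59 ± 0.24) overlapped between groups. Fos (0.07 ± 0.20) and Egr1 (0.13 ± 0.15) overlapped as well.

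The circadian clock runs on activators that drive Per and Cry genes, whose proteins feed back on them, and on Rev-erb repressors. Of 17 clock genes 4 were lower and 1 higher at an unadjusted p under 0.05, and the median was 0.01, beside 4.72% lower and 5.6% higher over all probe sets. The repressors Cry1 (168.5, 147.9 and 170 untreated, 141.8, 127.1 and 108.1 treated, -0.37 ± 0.15) and Cry2 (-0.71 ± 0.31) were lower in every treated array, with 0.00 and 0.19 on the dim other probe sets of Cry1. Of the Rev-erb genes, Nr1d1 was higher (0.49 ± 0.18) and Nr1d2 lower (-0.35 ± 0.16) without overlap. Per1 (0.01 ± 0.18) and Dbp (0.06 ± 0.22), both strongly rhythmic, overlapped. Time of harvest is not stated. In the glucocorticoid list, the receptor Nr3c1 read 43.5 to 58.5 and 23.7 to 36 (-0.83 ± 0.27), and the metallothionein Mt1 925.4 to 1153.1 and 706.4 to 875.7 (-0.37 ± 0.16). The median of its 13 kept genes was -0.14.

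Astrocyte genes divided. Of 17 kept, 3 were higher at an unadjusted p under 0.05, 0 lower, and the median was -0.01, beside 5.6% higher and 4.72% lower over all probe sets. Mt3, a brain metallothionein, read 1757.2, 1251 and 1078.1 in untreated and 2169.4, 1910 and 2235.3 in treated arrays (0.66 ± 0.25, limma adjusted p = 0.402). Glul, glutamine synthetase, read 222.7 to 245.2 and 289.7 to 376.7 (0.48 ± 0.18) on the probe set named and 0.02 on its other. Gfap, the astrocyte intermediate filament, read 157.4 to 230.3 and 223.9 to 308.8, with overlap (0.50 ± 0.17). Of 11 kept microglial genes 1, the endotoxin co-receptor gene Cd14, was higher at an unadjusted p under 0.05 (0.36 ± 0.14), beside 5.6% of all probe sets. The complement gene C1qc (-0.23 ± 0.20) overlapped. Of 11 myelin genes 0 had an unadjusted p under 0.05, beside 10.3% of all probe sets, and their median was 0.01.

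Interferon-induced and class I histocompatibility genes had estimates mostly above 0. Of 21 kept genes 15 had estimates above 0, 3 were higher and 0 lower at an unadjusted p under 0.05, and the median was 0.18, beside 52.3% above 0, 5.6% higher and 4.72% lower over all probe sets. The median was 0.0741 without treated array 3 and 0.12 without untreated array 2. Treated arrays were all higher at 6 of the 21, where 11.4% of all probe sets were. Besides Gbp7 these included Irf8, a transcription factor of microglia (33.9, 37 and 32.1 untreated, 45.9, 46.9 and 53.4 treated, 0.50 ± 0.20), and H2-K1, a class I heavy chain (195.3, 242.7 and 247.2 untreated, 265, 339.3 and 388.8 treated, 0.53 ± 0.21). H2-K1 belongs to a family of near-identical genes, so its probe sets may read relatives, and its 2 others gave 0.15 and 0.37. They also included Gbp3 (14.1, 34.5 and 17.2 untreated, 48.6, 45.2 and 48.6 treated, 1.22 ± 0.59) and the GTPase Irgm2 (0.45 ± 0.24), which are named after their values were seen. The classical interferon genes Isg15 (-0.75 ± 0.54), Ifit3 (-0.18 ± 0.24) and Irf7 (0.21 ± 0.22) overlapped between groups.

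Interferon-stimulated genes carry a response element in the promoter that interferon-activated factors bind. Its core was searched on both strands as GAAA, any 2 bases and GAAA, in the 250 bases before RefSeq starts (GRCm38.p6). Looked at were the 6 genes of the list that were higher in every treated array, and Psmb8, which overlapped. Gbp7, Gbp3 and Irgm2 are shown because their windows held a match. Capitals mark the core, which reads TTTC, 2 bases and TTTC where it lies on the opposite strand. In Gbp3 a pair of overlapping matches gives 1 longer run.
Gbp7, chr3:142530086-142530335, plus strand: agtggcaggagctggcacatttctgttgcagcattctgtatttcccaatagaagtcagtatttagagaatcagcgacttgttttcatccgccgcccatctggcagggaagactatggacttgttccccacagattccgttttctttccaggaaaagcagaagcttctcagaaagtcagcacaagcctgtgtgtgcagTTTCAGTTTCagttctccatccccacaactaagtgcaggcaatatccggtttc
Gbp3, chr3:142559794-142560043, plus strand: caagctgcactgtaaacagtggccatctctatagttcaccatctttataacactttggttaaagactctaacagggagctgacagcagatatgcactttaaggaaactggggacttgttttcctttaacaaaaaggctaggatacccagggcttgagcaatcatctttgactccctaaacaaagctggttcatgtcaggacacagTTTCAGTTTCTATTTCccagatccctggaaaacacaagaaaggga
Irgm2, chr11:58214727-58214976, plus strand: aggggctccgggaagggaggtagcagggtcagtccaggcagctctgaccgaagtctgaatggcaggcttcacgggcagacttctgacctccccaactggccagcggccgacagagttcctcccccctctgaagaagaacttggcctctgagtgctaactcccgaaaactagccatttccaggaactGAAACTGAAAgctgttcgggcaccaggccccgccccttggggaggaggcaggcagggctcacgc
The core began 53 bases before the start in Gbp7, 45 in Gbp3 and 64 in Irgm2, and 2.98% of 32851 such windows hold it. No match was found in the windows of Irf8, H2-K1, Tap1 or Psmb8, nor in that of the second RefSeq start of Gbp3. Other genes of the list, such as Isg15, Ifit3 and Irf7, were not looked at singly. A match describes the letters and not a bound site, and whether matches go with higher readings in treated arrays was not tested.

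Of 34 kept chaperone genes 4 were higher and 1 lower at an unadjusted p under 0.05, beside 5.6% and 4.72% of all probe sets, and the median was 0.02. Of the 4 higher genes 3 encode proteins of the endoplasmic reticulum. Pdia3, a disulfide isomerase that folds glycoproteins, read 143.7, 91.3 and 115.8 in untreated and 234.3, 188.1 and 169.8 in treated arrays. All treated arrays were higher (0.77 ± 0.20, limma adjusted p = 0.284). Pdia4, another isomerase, read 57.3 to 75 and 76.3 to 118.3 (0.69 ± 0.26), and Hspa5, the lumenal chaperone BiP, 462.4, 505 and 516.6 against 620.4, 627.3 and 591.3 (0.31 ± 0.13, limma adjusted p = 0.434). Other lumenal chaperones did not follow: Hsp90b1 was at 0.05 ± 0.15, Pdia6 at -0.24 ± 0.23 and Canx at -0.20 ± 0.20. The cytosolic heat shock gene Hspa1a was at -0.47 ± 0.26. The promoter of Hspa5 is the textbook carrier of the endoplasmic reticulum stress element, which was searched as CCAAT, any 9 bases and CCACG, and is shown with that match in capitals.
Hspa5, chr2:34771840-34772089, plus strand: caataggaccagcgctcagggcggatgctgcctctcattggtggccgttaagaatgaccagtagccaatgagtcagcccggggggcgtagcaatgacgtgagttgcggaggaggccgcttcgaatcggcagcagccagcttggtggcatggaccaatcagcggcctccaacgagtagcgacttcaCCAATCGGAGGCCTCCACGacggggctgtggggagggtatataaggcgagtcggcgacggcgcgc
It began 65 bases before the start, and 0.113% of 32851 windows hold this element on either strand. The windows of Pdia3 and Pdia4 held no exact match.

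Genes of RNA processing included 6 of 42 that were lower and 1 that was higher at an unadjusted p under 0.05, where 4.72% and 5.6% of all probe sets were. Ptbp2, a neuronal splicing repressor, read 157.3 to 215.2 in untreated and 98.6 to 155.5 in treated arrays (-0.64 ± 0.19, limma adjusted p = 0.318), and its other probe set gave 0.30. The spliceosome genes Sf3b1 (-0.45 ± 0.15, and 0.00 on its other probe set) and Prpf8 (-0.32 ± 0.13) and the splicing factor Srsf1 (-0.50 ± 0.21) were lower in every treated array. The kinase Clk4, which phosphorylates such factors, was higher (0.41 ± 0.18). The list median was 0.02.

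Lists for energy and the proteasome were close to level, and ribosomal protein genes had estimates more often below 0. The 58 kept oxidative phosphorylation genes had a median of -0.02, with 28 estimates above 0 and 30 below. Ndufa1, a complex I subunit, read 20 to 21.8 in untreated and 36 to 42.2 in treated arrays (0.90 ± 0.25), and Cyc1 of complex III read 1160.7 to 1286.6 and 1346 to 1616.6 (0.22 ± 0.11, with -0.28 on its other probe set). Cs, citrate synthase, read 646.1 to 727.8 and 549.5 to 609.6 (-0.25 ± 0.10). Of 17 glycolysis genes 0 had an unadjusted p under 0.05, beside 10.3% of all probe sets. The proteasome list had 2 of 31 lower, Psma2 (-0.33 ± 0.10) and Psmb5 (-0.45 ± 0.15, but 0.69 on its other probe set), and 1 higher, close to the 4.72% and 5.6% of all probe sets. The ribosomal protein list had 17 of 23 estimates below 0 and a median of -0.09, where 52.3% of all probe sets were above 0. At an unadjusted p under 0.05, 3 were lower and 1 higher, beside 4.72% and 5.6% of all probe sets. Without overlap 7 were lower and 2 higher, beside 10.4% and 11.4%. Rpl7a was at -0.27 ± 0.10. Rps29, which read 29.6 to 33.6 in untreated arrays, near the filter level, was at 0.89 ± 0.22. The 18S control given above was higher in treated wild type arrays. Its 3′ signal was 66.1 to 101.28 in untreated and 59.1 to 92.9 in treated R6/2 arrays, which overlap, but the controls of several of those arrays are copies. Detoxification genes had 7 of 36 higher without overlap and 1 lower, and a median of 0.03, beside 11.4% higher and 10.4% lower without overlap over all probe sets. The 7 included the glutathione transferases Gstm2 (97.5 to 158.9 untreated, 197.7 to 223.5 treated, 0.68 ± 0.26) and Gsta2 (0.44 ± 0.17). Gclm, which limits glutathione synthesis, read 71.3 to 96.6 and 56 to 68.1 (-0.44 ± 0.16).

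Of 23 kept vascular and meningeal genes 5 were higher and 0 lower at an unadjusted p under 0.05, beside 5.6% and 4.72% of all probe sets, and the median was 0.02, or from 0.0104 to 0.0906 with 1 array left out. Beside Snai2, they were Igf2, a growth factor of meninges (393.1, 303.4 and 334.7 untreated, 482.6, 470.8 and 470.1 treated, 0.47 ± 0.15), and the collagens Col4a1 (61.1, 73.4 and 82.2 untreated, 119.1, 99.1 and 125.9 treated, 0.67 ± 0.25), Col4a2 (0.29 ± 0.13) and Col1a1 (0.34 ± 0.15). Col4a1 and Col4a2 are neighbours transcribed away from each other. Endothelial markers did not move with them: Cldn5 was at -0.24 ± 0.22 and Vwf at -0.85 ± 0.40. Col1a2 was at -1.62 ± 0.52 on its dimmer kept probe set and 0.04 on the brightest. The summed signal of the list was 3823 to 4414 in untreated and 4116 to 4930 in treated arrays, which overlap.

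Of 4 kept blood genes 0 passed and 3 were lower at an unadjusted p under 0.05, beside 4.72% of all probe sets, and the fourth, the carbonic anhydrase gene Car2, was at -0.03 ± 0.18. Alas2, the erythroid enzyme of haem synthesis, read 42.2, 45.6 and 75.7 in untreated and 20, 9.3 and 36.1 in treated arrays. The groups did not overlap (-1.48 ± 0.43, limma adjusted p = 0.318). The globin genes Hba-a1 (1383.2, 1470.1 and 2638.6 untreated, 1121.5, 682.7 and 1334.4 treated, -0.80 ± 0.37) and Hbb-b2 (-0.83 ± 0.34, with overlap) also read lower, and untreated array 3 was the highest for all 3. The summed signal of the 4 kept blood genes was 2709 to 4222 in untreated and 1760 to 2340 in treated arrays. Car2, which is also in the myelin list, gave 660.2 to 761.7 of it in untreated and 620.7 to 764.5 in treated arrays. The part of the blood signal in other differences was not tested. Markers of neighbouring regions showed 0 of 10 hypothalamic and pituitary, 0 of 8 cerebellar and 0 of 6 choroid plexus genes at an unadjusted p under 0.05, beside 10.3% of all probe sets. With so few genes, counts of 0 do not show that these regions were sampled equally. Ttr, the choroid plexus thyroxine carrier, read 416.1 to 642.6 and 358.1 to 498 (-0.23 ± 0.22).

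**Figure D4:**
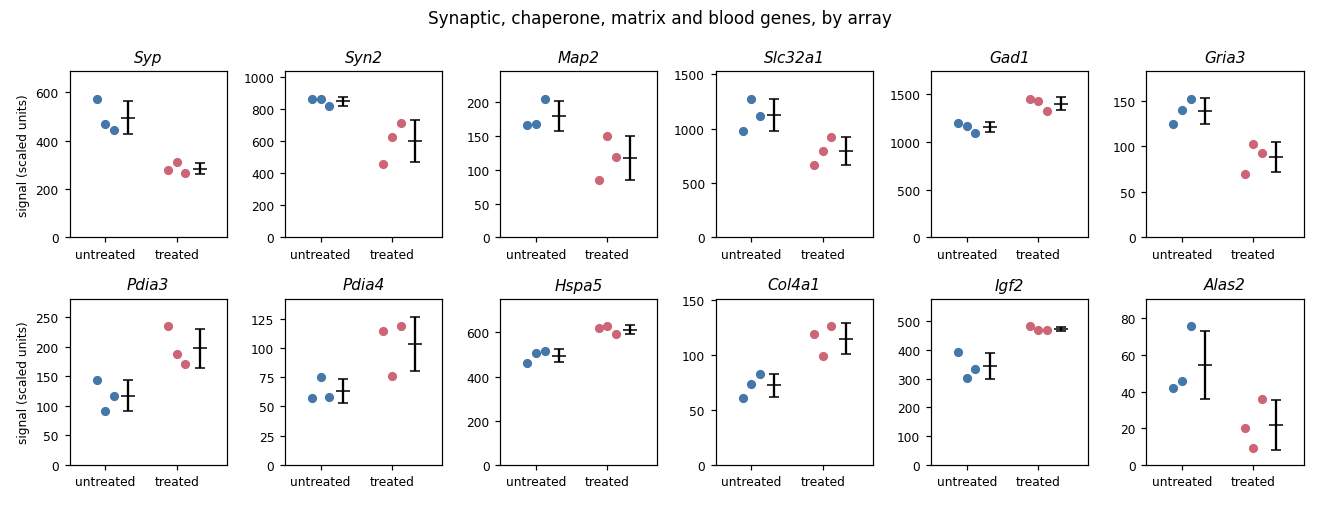
Signal (scaled linear units, axes from 0) of 12 genes in the 3 untreated (blue) and 3 treated (red) wild type arrays, with the mean and SD in black. The synaptic genes other than Gad1 and the blood gene Alas2 are lower, and Gad1, the chaperones, Col4a1 and Igf2 higher, in every treated array.

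Trophic and survival genes added a few readings. Birc2, an inhibitor of apoptosis, read 66.8 to 74.8 in untreated and 93.5 to 116.9 in treated arrays (0.62 ± 0.16, limma adjusted p = 0.258, and -0.07 on its other kept probe set). Of 18 kept apoptosis genes 15 had estimates above 0, the median was 0.12 and 2 were higher at an unadjusted p under 0.05, beside 52.3% above 0 and 5.6% higher over all probe sets. The median ran from 0.0852 to 0.24 with 1 array left out, the last without treated array 3. Bad, a pro-death relative of Bcl2, was at 0.36 ± 0.17, and at -0.25 on its other probe set. Irs2, an adaptor of the insulin receptor, read 73.8, 73.4 and 48.6 in untreated and 8.5, 76.1 and 38.7 in treated arrays, and its estimate of -1.13 ± 0.61 became -0.24 without treated array 1.

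The second question was whether the same drugs did the same in R6/2 brain, a comparison that shares no array with this one. Across the 7453 probe sets, which are not independent, the treatment estimates of the genotypes had a Pearson correlation of -0.052 and a Spearman correlation of -0.037. Among the 769 probe sets with an unadjusted p under 0.05 in wild type, 53.3% had the same sign in R6/2 brain. Of the 30 with the smallest p and no overlap, 19 did. Snai2 (0.08 ± 0.15 in R6/2 brain), Tex2 (0.17), Gbp7 (0.12) and Thrb (0.17) were all near 0 there. In R6/2 brain too, 0 of 7453 passed (0.0%) and 1262 (16.9%) had an unadjusted p under 0.05. The interaction test found 0 of 7453 (0.0%) with a different response in the genotypes in limma (smallest adjusted p = 0.305), and 1003 at an unadjusted p under 0.05.

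**Figure D5:**
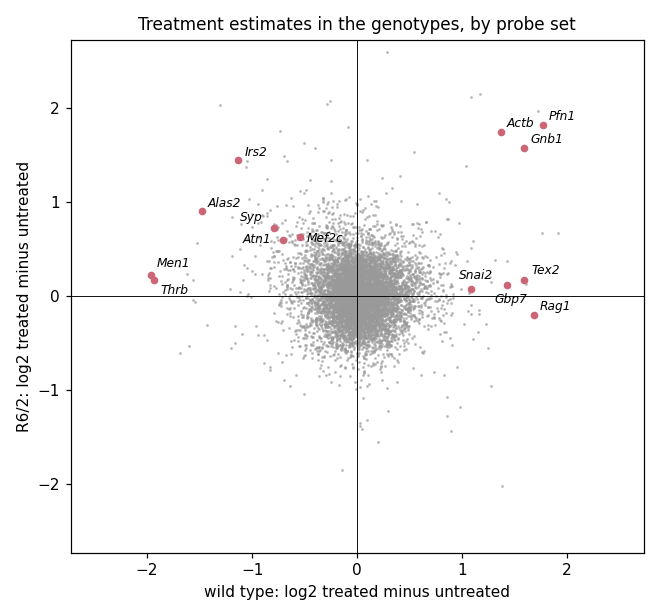
Each point is 1 of 7453 probe sets, with the log2 change by treatment in wild type brain on the x axis and in R6/2 brain on the y axis, and named genes in red. The cloud is round (Pearson correlation of -0.052), Snai2, Tex2, Gbp7 and Thrb lie near 0 on the y axis, and Actb, Pfn1 and Gnb1 lie high on both axes.

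Most of the smallest interaction p-values belonged to genes with opposite estimates in the genotypes, which a ranking on the difference of 2 effects favours. Snai2 was also among them, with a difference of 1.01 ± 0.22 and estimates of the same sign (1.09 in wild type and 0.08 in R6/2 brain). Syp was lower with treatment in wild type and read 119.7 to 273.8 in untreated and 320 to 339 in treated R6/2 arrays, higher in each (0.72 ± 0.21). The difference of the 2 effects was -1.52 ± 0.31 (SE, limma adjusted p = 0.305). Nfyb differed by -1.04 ± 0.21, Mef2c, a neuronal transcription factor, by -1.18 ± 0.24, and Atn1, a polyglutamine disease gene, by -1.31 ± 0.29, each at an adjusted p of 0.305. Mef2c was at -0.55 in wild type on the probe set named and at -0.12, -0.36 and -0.34 on its others. Akirin1, a nuclear cofactor, differed by 1.71 ± 0.36, and its other probe set gave -0.26 in wild type.

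Of 7453 probe sets 106 had an unadjusted p under 0.05 in both genotypes, 61 of them with the same sign. Taken singly, 769 reached that level in wild type and 1262 in R6/2 brain. The genes below were picked from the 61 for the size of their estimates, and those higher in both genotypes come first. Actb, cytoplasmic beta-actin, read 144, 105.9 and 112.4 in untreated and 387.6, 290.4 and 261.8 in treated wild type arrays (1.37 ± 0.48), with 1.17 ± 0.54 on its other probe set. In R6/2 brain it was at 1.75 ± 0.45, although untreated R6/2 array 1 already read 295.3, against 44.6 to 75.6 in the other 3. The actin control on the same arrays, read by its 3′ probe set, was 2060 to 2119 in untreated and 2409 to 2654 in treated wild type arrays, a much smaller relative difference. Pfn1, which binds actin monomers, read 23, 30.1 and 13.7 against 55, 42.7 and 159.3 (1.77 ± 0.47, and 1.82 ± 0.44 in R6/2 brain). Gnb1, a G protein beta subunit, was at 1.59 ± 0.71, with untreated wild type array 1 alone at 87.8 against 543.8 and 550.8, and 0.71 without that array. Its 2 other probe sets gave 0.87 and 0.78. The protease inhibitor gene Slpi was at 0.70 ± 0.27 in wild type and 0.69 ± 0.25 in R6/2 brain, with 0.31 in wild type on its other kept probe set. Lower in both were Pccb, a mitochondrial propionyl-CoA carboxylase subunit (-0.70 ± 0.29 and -0.89 ± 0.27), and Tmem70, an assembly factor of ATP synthase (-0.76 ± 0.27 and -0.60 ± 0.25). In the fit of all 13 arrays none of these passed in either genotype, with adjusted p of 0.369 for Actb in wild type and 0.246 in R6/2 brain by limma. In wild type, Actb passed with 6 arrays (limma adjusted p = 0.0497) and with 9 (0.0129), and Pfn1 with array weights (0.0495).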

How the data were processed

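Expression was measured in mouse brain hemispheres on Affymetrix arrays with 12488 probe sets. Values are deposited as linear intensities, and the authors had scaled every array to the same mean after trimming 2% at each end, near 100.05. The software that made them is not given in the sources used here. Values under 3.1, the 10th percentile, were set to 3.1 and log2 was taken. The 66 control probe sets were left out, and 7453 of 12422 others passed a filter on mean log2, set at its 40th percentile (a signal of 24.9). Of the 12422, 10833 had 1 gene in the platform annotation, 396 several and 1193 none, and those with several or none were not named. A mean per group was fitted to all 13 arrays in limma 3.58.1 (R 4.3.3) with eBayes and an intensity trend, and adjusted by the Benjamini-Hochberg method. Control probe sets were compared by exact permutation (scipy 1.17.1). The fit was tested on simulated data with 200 changed probe sets. Simulated noise was normal, with 1 spread per probe set pooled over all 13 arrays and given to every group. In the real data untreated R6/2 arrays were the most variable, so the simulation cannot rank the 2 fits by their sensitivity there. With 13 arrays it recovered 57% of changes of log2 1 and 9% of changes of log2 0.5, and called 4 unchanged probe sets. With the 6 wild type arrays it recovered 42% and 0%, and called 3 unchanged probe sets. A count of 0 past the threshold therefore does not show that transcript levels were equal.

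The members, lists and tests were chosen with earlier results of these data known. Named were the 15 higher and 15 lower probe sets with the smallest p and no overlap, the 10 largest of each, all drug target and creatine genes, the 3 members of each list with the smallest p, every interferon, cholinergic and monoamine gene with an unadjusted p under 0.05, and the leading genes shared by or differing between genotypes. Genes named besides these illustrate a list. Array number limits the precision. Other fits, floors, filters, scalings and left-out arrays were tried as alternatives.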

Additional observations from a re-analysis of the deposited data

Results flagged for a closer look

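The 18S ribosomal control, which is outside the tested probe sets, was 2.41 times as high in treated as in untreated wild type arrays on its 3′ probe set, with no overlap between the groups. Untreated R6/2 arrays (66.1 to 101.28) and treated R6/2 arrays (59.1 to 92.9) also read above all untreated wild type arrays. The controls of several R6/2 arrays are copies, and the reason for the difference was not tested.

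For Actb, untreated R6/2 array 1 read 295.3 on the probe set named, far above the other 3 arrays of its group. It was the 1 such gap among the untreated R6/2 values of 16 named probe sets, and the criterion used, Dixon's at the 95% level, marks about 1 in 20 groups by chance.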

How the results depend on the processing

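The number of probe sets past an adjusted p of 0.05 in limma was 9 with the 6 wild type arrays alone, 7 with 9 arrays, 120 with array weights and 2 (Gnao1 and Snai2) with no filter, and 0 with a floor of 10, a filter at the 60th percentile, quantile normalization or median scaling. It ran from 0 to 3 with 1 wild type array left out at a time, the 3 (Efl1, Amacr and Sergef) arising without treated array 1. At an unadjusted p under 0.05, 537 were lower with 6 arrays and 540 with 9, 821 were higher and 619 lower with array weights, 781 were higher with no filter and 250 with the stricter filter. With an array left out, from 306 to 420 were higher and from 231 to 393 lower. Median scaling left 36.3% of them higher. The correlation between genotypes was 0.074 with array weights and ran from -0.097 to 0.049 with an array left out, the last without treated array 1. Of 2010 values of 147 named probe sets under these alternatives, 1938 kept direction and side of the threshold, 59 newly passed it and 13 changed sign. Those 13 belong to Ache (0.0181 with quantile normalization, 0.0215 with weights, from -0.10 to 0.17 with an array left out), Maoa (0.0199 with weights, from -0.16 to 0.12), Chrna7 (0.008 with weights, from -0.27 to 0.23), Ckmt1 (from -0.0186 to 0.18) and Calb1 (from -0.15 to 0.0386). A list median counts as moved when it shifts by more than the pooled SD between replicate arrays. With the filter at the 60th percentile, the list medians that moved were drug targets 0.099, circadian clock -0.14, calcium signalling 0.0616, sterol synthesis 0.0369, cerebellum 0.0774, cell cycle 0.041. With quantile normalization, the list medians that moved were monoamine -0.0344, calcium signalling -0.0487. With median scaling, the list medians that moved were circadian clock -0.0485, astrocyte -0.0698, pan-neuronal and synaptic vesicle -0.13, calcium signalling -0.0477, glycolysis -0.0698, chaperone -0.033, proteasome -0.0903, ribosomal protein -0.15, antioxidant and xenobiotic -0.0281, cerebellum -0.0982. With array weights, the list medians that moved were striatal projection neuron 0.0129, circadian clock -0.0469, astrocyte -0.0863, glycolysis -0.0588, ribosomal protein -0.14, sterol synthesis 0.0437, cerebellum -0.0059. With 1 wild type array left out at a time, medians that moved ran from -0.27 to 0.17 for cholinergic, from -0.13 to 0.18 for monoamine, from -0.0662 to 0.0419 for circadian clock, from -0.15 to -0.0225 for glucocorticoid-induced, from -0.0468 to 0.06 for neuropeptide and interneuron, from -0.0364 to 0.0181 for calcium signalling, from -0.0465 to 0.037 for glycolysis, from -0.071 to 0.0049 for mitochondrial biogenesis and energy sensing, from -0.0099 to 0.044 for chaperone, from -0.12 to 0.0258 for sterol synthesis, from -0.0443 to 0.0322 for cerebellum, from -0.002 to 0.12 for growth factors and trophic signalling. The cause of these shifts was not tested. No paired analysis was possible because the labels pair no treated with any untreated animal, and the replicate numbers only follow the order of the samples. Signals near or under the filter level are the least certain. Examples are Thrb and Men1 in treated arrays and Slc7a9, Abcb4, Rag1, Tex2, Gbp7, Snai2, Ndufa1, Rps29, Ckm, Gbp3 and Pfn1 in untreated ones.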
